A study of Mus musculus with 44 samples.

Results

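Collagens are the main proteins of the scar that forms in a fibrotic liver, and each is built from 3 chains that wind around each other. Here the collagen chain genes were followed in nuclear RNA of mouse liver. They were found by symbol, as every counted identifier whose gene name has the form of a collagen chain (Col, a type number, a, a chain number), and 44 of the 20105 identifiers did. By type, 11 are fibrillar chains (types I, II, III, V, XI, XXIV and XXVII), 8 are chains of basement membranes or their neighbourhood (types IV, XV and XVIII), and 25 belong to other types, among them 6 beaded filament chains of type VI and 9 fibril-associated chains.

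All libraries came from male HEP-INTACT mice, in which hepatocyte nuclei carry a tag that allows them to be pulled out of a liver homogenate (INTACT). The labels do not give the promoter that drives the tag. The advanced mice had eaten one of the diets that induce steatohepatitis (NASH), FPC for 20 weeks or CDAHFD for 7 weeks, and had steatosis, inflammation and significant fibrosis on histology. The mild mice had eaten the same diets for the same periods and had steatosis and inflammation without significant fibrosis, and the controls had eaten a low-fat diet for either period. Stage was assigned from histology after the diet, so mild and advanced mice were not randomised. For each diet there were 3 advanced, 4 mild and 4 control mice, and each of the 22 mice gave 1 library of hepatocyte nuclei (the immunoprecipitate) and 1 library of whole liver nuclei (the input).

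A fibrillar collagen is secreted as a procollagen, trimmed at its ends and laid down in banded fibrils. In a healthy liver, type I, III and V fibrils lie mainly around portal tracts and central veins, and in fibrosis activated stellate cells and portal fibroblasts deposit most of the new fibrils. Type IV chains instead form sheets, the scaffold of basement membranes: a trimer of Col4a1 and Col4a2 is nearly ubiquitous, while Col4a3, Col4a4, Col4a5 and Col4a6 join trimers known best from the kidney and from epithelia. Type VI makes beaded filaments that link cells to fibrils, fibril-associated types such as XII and XIV coat fibrils, and transmembrane types stay anchored in the cell that makes them.

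Each library held 12.1 M to 33.1 M counts (median 22.8 M). Levels are given as CPM, a gene's count relative to the total of its library, and changes as log2 fold changes from edgeR, whose TMM scaling centres the median gene near 0 (-0.04 to 0.20 over the 22 comparisons). Scaled by library totals alone, the median gene was higher by 0.40 to 0.49 (log2) in advanced than in control mice, so a ratio of CPM is higher than the fold change given with it. Chains were called changed at a Benjamini-Hochberg adjusted p under 0.05 over all genes tested. A pair of CDAHFD control mice stood apart: the hepatocyte library of Control_9862 deviated with the whole liver library of Control_9867 (r = 0.59) and the reverse (r = 0.50), while their own libraries did not (r = -0.13 and -0.18). Tests that use CDAHFD controls were therefore also run without both mice. The pulled-down nuclei were depleted of, not free from, other cells: in controls, summed endothelial markers stood at 9.11% ± 0.846 (FPC) and 9.41% ± 1.72 (CDAHFD) of their whole liver level (SD, n = 4 each), and stellate markers at 21.3% ± 4.77 and 29.6% ± 8.42. In bulk nuclear RNA, fewer nuclei of a type and less RNA per nucleus cannot be told apart.

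In control livers the highest chains per length were not the classic scar collagens. Lengths include introns and are the counted length or, for chains the authors' table does not list, the RefSeq gene length. Per kb of this length, the highest chain in control hepatocyte nuclei was Col18a1, whose carboxyl end can be released as endostatin, at 9.09 CPM per kb in the FPC study and 9.56 CPM per kb in the CDAHFD study. Col5a3, the least widespread type V chain, followed at 4.14 and 4.17 CPM per kb, then the minor fibrillar chain Col27a1 at 1.16 and 2.45 CPM per kb. The fibril-associated Col20a1 and the basement membrane chain Col15a1 came next in both studies. In control whole liver the first 3 places were the same, and Col3a1 stood at place 4 (FPC, 0.441 CPM per kb) or 5 (CDAHFD, 0.549 CPM per kb). In advanced FPC whole liver Col3a1 was first at 5.43 CPM per kb, before Col18a1 at 4.27 and Col1a1 at 4.19 CPM per kb. Col18a1 kept the first place in the other 11 groups.

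The expression filter left out 8 chains in every fit, Col2a1, Col6a4, Col9a1, Col9a2, Col10a1, Col11a1, Col17a1 and Col26a1, none of them above 0.494 CPM in any library. Col8a2 and Col28a1 passed it in whole liver but not in hepatocyte fits, and Col24a1 did not in the CDAHFD hepatocyte fit. Counts of chains below are therefore out of 33 to 36 chains tested, and chains that pass only where they are high had a better chance to be called.

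In advanced against control mice, tested chains rose more often than they fell. In FPC hepatocyte nuclei, 19 of 34 tested chains rose and 5 fell, where 26.5% of all genes tested rose and 20.4% fell. The median log2 change of the chains was 1.15. In FPC whole liver, 25 of 36 tested chains rose and 5 fell, where 31.3% of all genes tested rose and 28.0% fell (median of the chains 1.70). In CDAHFD hepatocyte nuclei, 16 of 33 tested chains rose and 6 fell, where 30.3% of all genes tested rose and 29.2% fell (median 0.99). In CDAHFD whole liver, 18 of 36 tested chains rose and 7 fell, where 29.7% of all genes tested rose and 25.9% fell (median 0.83). Rises therefore exceeded the background share in all 4 comparisons, and falls did not.

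**Figure D1:**
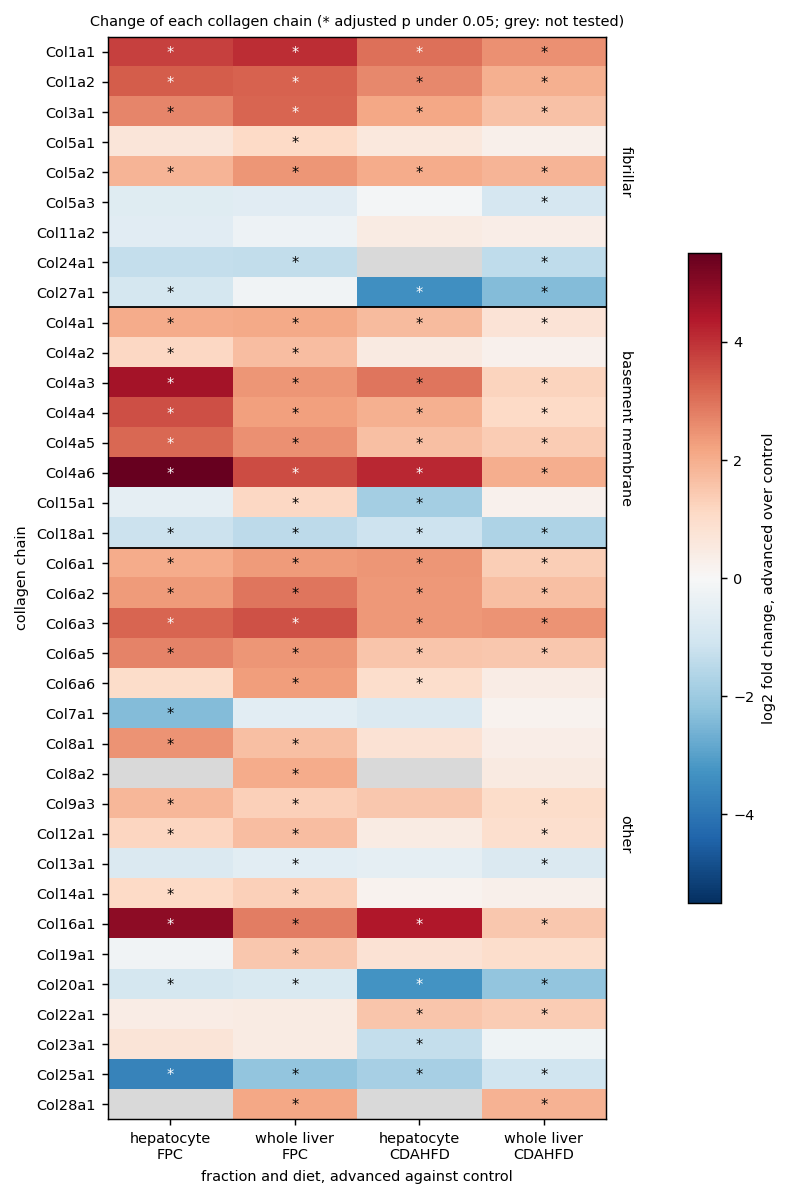
Log2 fold change of advanced over control mice (colour) for the 36 collagen chains tested at least once (rows, by class) in hepatocyte and whole liver nuclei of the FPC and CDAHFD studies (columns). Stars mark an adjusted p under 0.05 and grey cells were not tested. Rows of type I, III, IV and VI chains are red nearly throughout, while Col18a1, Col20a1 and Col25a1 are blue in all 4 columns.

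The classic fibril chains rose together. Col1a1, Col1a2, Col3a1 and Col5a2 were called higher in advanced mice in both diets and both fractions, and Col5a1 was called only in FPC whole liver (5 of 5 there, 4 of 5 in each other comparison). The share of all genes that rose was 26.5% in FPC hepatocyte nuclei, 31.3% in FPC whole liver, 30.3% in CDAHFD hepatocyte nuclei and 29.7% in CDAHFD whole liver. The median log2 change of these chains was 2.69 in FPC hepatocyte nuclei, 3.19 in FPC whole liver, 2.14 in CDAHFD hepatocyte nuclei and 1.87 in CDAHFD whole liver. Summed over these 5 chains, hepatocyte nuclei of advanced FPC mice held 45.5 ± 3.44 CPM and those of controls 7.78 ± 1.82 CPM (SD, n = 3 and 4). The sums in whole liver of the same mice were 522 ± 163 CPM in advanced mice and 65.7 ± 3.48 CPM in controls.

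Col1a1 encodes the α1 chain of type I collagen, the main fibril former. Col1a1 in FPC hepatocyte nuclei stood at 0.355, 0.241, 0.316 and 0.472 CPM in controls, 4.12, 2.36, 2.62 and 3.92 CPM in mild mice and 6.14, 5.63 and 7.15 CPM in advanced mice. Col1a1 in FPC whole liver stood at 2.31, 2.38, 4.33 and 3.63 CPM in controls, 19.9, 13.6, 26.3 and 27.0 CPM in mild mice and 102, 62.1 and 47.5 CPM in advanced mice. The 3 stages did not overlap in either fraction, and advanced exceeded control by 3.76 ± 0.31 (log2 ± SE, edgeR adjusted p = 6.5e-07) in hepatocyte nuclei and by 4.05 ± 0.34 (adjusted p = 1.1e-06) in whole liver. Col1a1 in CDAHFD hepatocyte nuclei stood at 0.439, 0.354, 0.846 and 0.878 CPM in controls, 4.40, 4.51, 6.76 and 5.48 CPM in mild mice and 5.45, 8.08 and 7.98 CPM in advanced mice. Col1a1 in CDAHFD whole liver stood at 1.36, 4.47, 5.71 and 4.57 CPM in controls, 15.8, 22.8, 30.8 and 26.0 CPM in mild mice and 31.8, 41.2 and 21.9 CPM in advanced mice. Every diseased library lay above every control there, mild and advanced overlapped, and the advanced change was 3.03 ± 0.33 (edgeR adjusted p = 1.2e-05) in hepatocyte nuclei and 2.51 ± 0.38 (adjusted p = 1.5e-04) in whole liver.

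Col1a2, the partner chain of type I, followed it. Col1a2 in FPC hepatocyte nuclei stood at 0.434, 0.145, 0.394 and 1.12 CPM in controls, 4.70, 2.75, 3.15 and 4.49 CPM in mild mice and 7.91, 6.21 and 6.86 CPM in advanced mice. Col1a2 in FPC whole liver stood at 5.0, 5.04, 6.39 and 8.44 CPM in controls, 29.5, 18.4, 30.5 and 35.0 CPM in mild mice and 109, 69.7 and 55.3 CPM in advanced mice. All diseased libraries of both fractions exceeded all controls. Col1a2 in CDAHFD hepatocyte nuclei stood at 0.997, 0.496, 1.30 and 0.725 CPM in controls, 4.44, 4.07, 6.87 and 6.22 CPM in mild mice and 5.14, 9.06 and 8.44 CPM in advanced mice. Col1a2 in CDAHFD whole liver stood at 5.63, 6.47, 8.86 and 9.66 CPM in controls, 23.4, 27.0, 39.1 and 37.8 CPM in mild mice and 35.0, 47.6 and 41.5 CPM in advanced mice. Again no diseased library fell into the control range. The advanced changes were 3.32 ± 0.45 and 3.23 ± 0.30 in FPC hepatocyte nuclei and whole liver, and 2.63 ± 0.33 and 1.97 ± 0.22 in the same fractions under CDAHFD (largest edgeR adjusted p = 5.3e-05).

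Col3a1 makes the type III homotrimer that is laid down early beside type I. Col3a1 in FPC hepatocyte nuclei stood at 2.05, 2.12, 1.30 and 2.62 CPM in controls, 14.2, 9.39, 10.4 and 11.6 CPM in mild mice and 17.5, 16.3 and 18.2 CPM in advanced mice. Col3a1 in FPC whole liver stood at 15.7, 14.5, 18.0 and 19.2 CPM in controls, 80.7, 54.6, 89.9 and 104 CPM in mild mice and 304, 176 and 141 CPM in advanced mice. Both diseased stages lay above controls in both fractions. Col3a1 in CDAHFD hepatocyte nuclei stood at 2.51, 1.2, 3.72 and 3.85 CPM in controls, 12, 12.1, 14.5 and 13.3 CPM in mild mice and 20.1, 21.0 and 11.8 CPM in advanced mice. Col3a1 in CDAHFD whole liver stood at 13.4, 17.1, 26.4 and 26.9 CPM in controls, 59.0, 74.5, 86.1 and 81.6 CPM in mild mice and 89.8, 102 and 73.8 CPM in advanced mice. Diseased and control libraries did not overlap there either, and the 4 advanced changes ran from 1.61 (CDAHFD whole liver) to 3.19 (FPC whole liver).

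Col5a2, with Col5a1, makes the type V trimer that nucleates type I fibrils. Col5a2 in FPC hepatocyte nuclei stood at 2.17, 1.64, 1.30 and 1.72 CPM in controls, 8.01, 3.98, 5.62 and 7.0 CPM in mild mice and 9.41, 7.79 and 7.39 CPM in advanced mice. Col5a2 in FPC whole liver stood at 12.9, 11.8, 11 and 11.9 CPM in controls, 41.6, 33.5, 37.0 and 44.3 CPM in mild mice and 94.2, 86.6 and 79.2 CPM in advanced mice. Mild and advanced overlapped in hepatocyte nuclei, whereas whole liver showed 3 separate stages. Col5a2 in CDAHFD hepatocyte nuclei stood at 1.32, 0.921, 0.733 and 1.07 CPM in controls, 4.20, 4.02, 5.53 and 3.52 CPM in mild mice and 6.77, 7.09 and 4.20 CPM in advanced mice. Col5a2 in CDAHFD whole liver stood at 10.7, 10.54, 11.9 and 13.8 CPM in controls, 43.2, 34.1, 51.6 and 40.9 CPM in mild mice and 51.6, 60.9 and 65.9 CPM in advanced mice. Advanced CDAHFD mice lay above controls in both fractions. The advanced changes were 1.87 ± 0.27 and 2.43 ± 0.13 in FPC hepatocyte nuclei and whole liver, and 2.05 ± 0.28 and 1.87 ± 0.16 under CDAHFD. Col5a1 averaged 79.6 ± 16.2 CPM in advanced and 27.6 ± 1.04 CPM in control FPC whole livers (change 1.09 ± 0.18, edgeR adjusted p = 1.9e-04), and 55.1 ± 13.7 against 32.9 ± 6.27 CPM under CDAHFD (0.28 ± 0.18, adjusted p = 0.21).

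**Figure D2:**
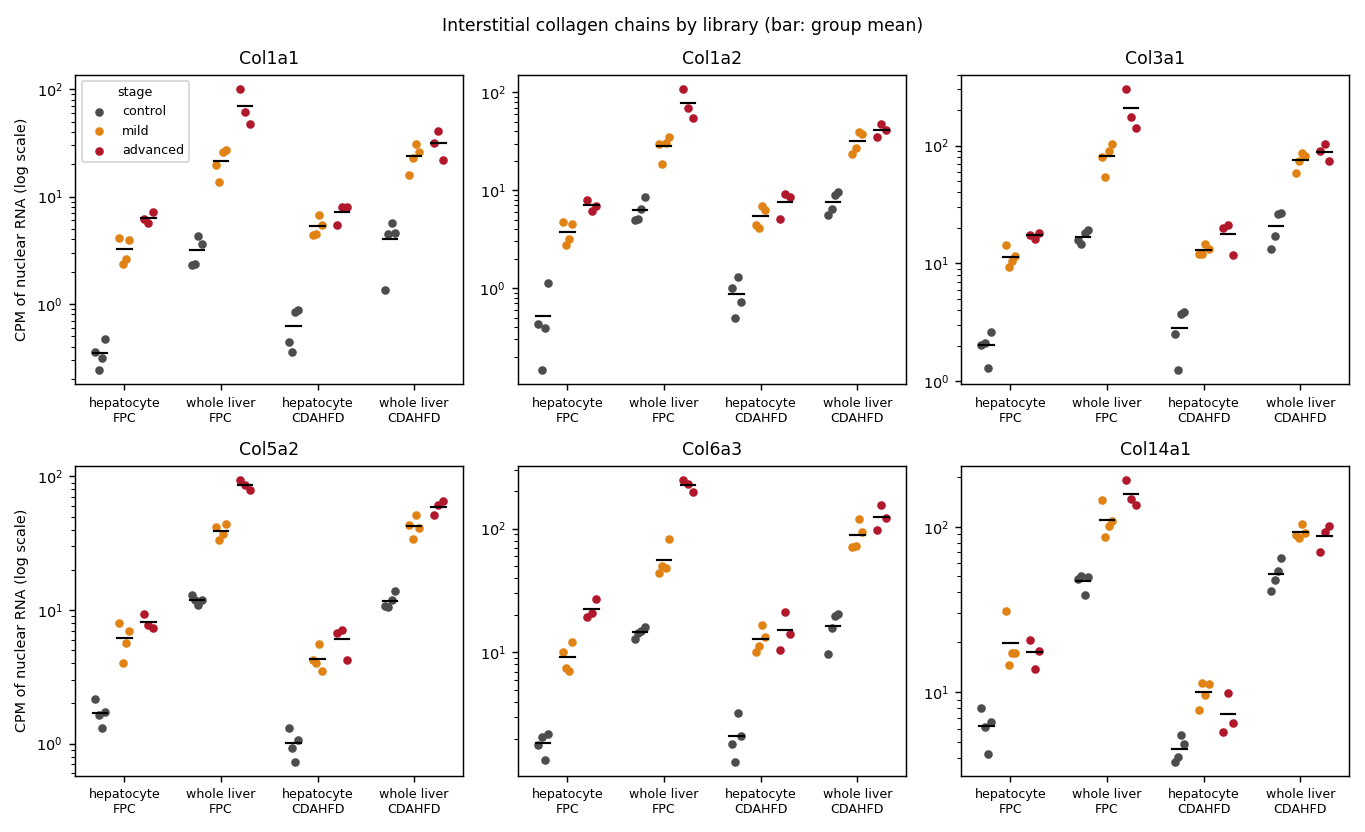
CPM on a log axis for 6 interstitial chains in each of the 44 libraries, by fraction and diet along the horizontal axis and by stage in colour (points: 1 mouse each, bars: group means). All diseased groups have means above their controls, and hepatocyte points lie well below the whole liver points of the same stage and diet.

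The other fibrillar chains did not follow. Col27a1 was called lower in advanced mice in 3 comparisons, Col24a1 in both whole liver comparisons, and Col5a3 in CDAHFD whole liver, while Col11a2, a cartilage chain, was called in none. Of the 9 fibrillar chains tested in FPC, 4 rose and 1 fell in hepatocyte nuclei, and 5 rose and 1 fell in whole liver, where 26.5% and 20.4% of all genes (hepatocyte nuclei) and 31.3% and 28.0% (whole liver) did. Under CDAHFD, 4 rose and 1 fell of 8 in hepatocyte nuclei, and 4 and 3 of 9 in whole liver, where 30.3% and 29.2% and 29.7% and 25.9% of all genes did.

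Col27a1 was about as high in hepatocyte nuclei as in whole liver of control mice. Col27a1 in CDAHFD hepatocyte nuclei stood at 198, 227, 239.7 and 505 CPM in controls, 55.2, 49.4, 64.5 and 68.6 CPM in mild mice and 21.9, 45.2 and 53.3 CPM in advanced mice. Col27a1 in CDAHFD whole liver stood at 167, 165, 207 and 465 CPM in controls, 32.9, 52.5, 75.4 and 80.6 CPM in mild mice and 59.5, 85.2 and 57.0 CPM in advanced mice. No diseased library reached the lowest control, and the mouse Control_10113 was far above the other controls in both fractions. The advanced change was -3.37 ± 0.40 (edgeR adjusted p = 3.5e-05) in hepatocyte nuclei and -2.38 ± 0.43 (adjusted p = 7.7e-04) in whole liver. Col27a1 in FPC hepatocyte nuclei stood at 171, 149, 129.5 and 107 CPM in controls, 176, 130.1, 119 and 131 CPM in mild mice and 64.8, 94.7 and 123 CPM in advanced mice. Col27a1 in FPC whole liver stood at 111, 123, 153 and 133 CPM in controls, 118, 112, 119 and 158 CPM in mild mice and 138, 164 and 155 CPM in advanced mice. Advanced and control mice of the FPC study overlapped, and the change was -0.97 ± 0.21 (adjusted p = 0.0019) in hepatocyte nuclei and -0.21 ± 0.14 (adjusted p = 0.20, and 0.23 by library totals) in whole liver.

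Col24a1, a minor fibrillar chain, was low and mostly found in whole liver. Col24a1 in FPC whole liver stood at 5.48, 6.73, 4.46 and 4.81 CPM in controls, 7.59, 6.16, 6.65 and 6.73 CPM in mild mice and 3.94, 2.09 and 2.44 CPM in advanced mice. Col24a1 in CDAHFD whole liver stood at 5.76, 4.79, 5.23 and 6.48 CPM in controls, 4.94, 5.61, 4.10 and 5.31 CPM in mild mice and 2.26, 3.76 and 2.72 CPM in advanced mice. All advanced livers lay below all mild and control livers, with changes of -1.37 ± 0.24 (edgeR adjusted p = 3.5e-04) and -1.40 ± 0.21 (adjusted p = 9.7e-05). Col24a1 in FPC hepatocyte nuclei stood at 0.946, 0.723, 0.355 and 0.60 CPM in controls, 2.27, 0.984, 1.44 and 1.41 CPM in mild mice and 0.490, 0.0526 and 0.435 CPM in advanced mice. Col24a1 in CDAHFD hepatocyte nuclei stood at 0.12, 0.496, 0.282 and 0.343 CPM in controls, 0.242, 0.760, 0.590 and 0.338 CPM in mild mice and 0, 0.412 and 0.182 CPM in advanced mice. These are a few counts per library, and the FPC advanced change of -1.30 ± 0.56 was not called (adjusted p = 0.073).

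Col5a3 averaged 154 ± 78.3 CPM in advanced and 186 ± 54.5 CPM in control FPC hepatocyte nuclei, and 248 ± 48.0 and 187 ± 37.2 CPM in the CDAHFD study (SD, n = 3 and 4). Neither change was called (-0.69 ± 0.41, edgeR adjusted p = 0.19, and -0.09 ± 0.23, adjusted p = 0.76), and the CDAHFD change had the other sign by library totals (0.41). Mild CDAHFD mice were called higher than controls in hepatocyte nuclei, at 399.8 ± 111 CPM (0.75 ± 0.21, adjusted p = 0.010), and advanced CDAHFD mice lower in whole liver, at 91.8 ± 47.0 against 126 ± 16.5 CPM (-0.93 ± 0.36, adjusted p = 0.045). That last call was lost on leaving out any of 6 single mice, with adjusted p up to 0.086.

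Type IV chains, the scaffold of basement membranes, rose in hepatocyte nuclei as well as in whole liver. All 6 type IV chains were called higher in advanced FPC mice in both fractions, with a median log2 change of 3.34 in hepatocyte nuclei and 2.34 in whole liver. Under CDAHFD 5 of 6 were called higher in each fraction (medians 1.86 and 1.15), the exception being Col4a2. Of all genes tested, 26.5% rose in FPC hepatocyte nuclei and 31.3% in FPC whole liver, and 30.3% and 29.7% under CDAHFD. The summed type IV level was 336 ± 97.0 CPM in advanced and 45.3 ± 16.5 CPM in control FPC hepatocyte nuclei, and 277 ± 16.8 and 78.1 ± 29.6 CPM in the CDAHFD study (SD, n = 3 and 4). In whole liver the sums were 554 ± 78.1 and 95.4 ± 12.9 CPM under FPC and 336 ± 27.4 and 152 ± 15.9 CPM under CDAHFD.

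The type IV genes lie in head-to-head pairs, so the starts of both partners lie close together. The windows below, 250 bases before to 50 after a start, come from RefSeq on GRCm38.p6 and are shown because both partners of each pair were called higher in advanced FPC mice. Capitals mark 4 motifs searched on both strands: the TATA box TATAAA, the box named after its letters CCAAT, the GC box GGGCGG and the SMAD-type element CAGACA, none of which contains another. By the starts of the counted identifiers, Col4a1 and Col4a2 begin 84 bases apart, Col4a3 and Col4a4 72 apart, and Col4a5 and Col4a6 1343 apart. The RefSeq window of Col4a1 is set on another start, 21 bases from that of Col4a2. The Col4a1 window (chr8:11312777-11313076, minus strand) also holds the start of Col4a2, and the Col4a4 window (chr1:82586800-82587099, minus strand) that of Col4a3. The Col4a5 (chrX:141475169-141475468, plus strand) and Col4a6 (chrX:141474027-141474326, minus strand) windows do not touch.
Col4a1: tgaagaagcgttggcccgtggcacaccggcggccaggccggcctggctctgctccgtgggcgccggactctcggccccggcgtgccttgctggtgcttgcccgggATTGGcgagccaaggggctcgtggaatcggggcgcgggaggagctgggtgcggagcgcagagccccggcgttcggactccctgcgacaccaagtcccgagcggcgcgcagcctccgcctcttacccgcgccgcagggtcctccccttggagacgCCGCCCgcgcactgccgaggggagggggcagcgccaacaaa
Col4a4: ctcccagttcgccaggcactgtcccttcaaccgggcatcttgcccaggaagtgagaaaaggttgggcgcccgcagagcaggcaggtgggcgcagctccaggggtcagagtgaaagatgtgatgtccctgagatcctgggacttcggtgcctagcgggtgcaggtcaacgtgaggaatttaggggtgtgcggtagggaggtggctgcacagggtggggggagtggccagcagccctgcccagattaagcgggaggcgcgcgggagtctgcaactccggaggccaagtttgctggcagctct
Col4a5: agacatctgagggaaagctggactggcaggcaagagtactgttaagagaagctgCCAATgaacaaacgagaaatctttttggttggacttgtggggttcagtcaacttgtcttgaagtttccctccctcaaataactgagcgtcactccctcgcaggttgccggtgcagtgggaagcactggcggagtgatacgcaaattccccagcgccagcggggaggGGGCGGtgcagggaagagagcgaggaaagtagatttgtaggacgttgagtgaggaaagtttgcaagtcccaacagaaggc
Col4a6: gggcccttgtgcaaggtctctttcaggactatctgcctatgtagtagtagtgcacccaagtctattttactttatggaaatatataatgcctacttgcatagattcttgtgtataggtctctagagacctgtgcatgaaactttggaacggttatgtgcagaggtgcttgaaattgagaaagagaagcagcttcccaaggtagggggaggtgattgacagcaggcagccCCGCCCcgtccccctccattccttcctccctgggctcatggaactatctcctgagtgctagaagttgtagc

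For comparison, the starts of 2 fibril chains that rose in all 4 comparisons are Col1a2 (chr6:4505368-4505667, plus strand) and Col3a1 (chr1:45311288-45311587, plus strand), in the same lettering.
Col1a2: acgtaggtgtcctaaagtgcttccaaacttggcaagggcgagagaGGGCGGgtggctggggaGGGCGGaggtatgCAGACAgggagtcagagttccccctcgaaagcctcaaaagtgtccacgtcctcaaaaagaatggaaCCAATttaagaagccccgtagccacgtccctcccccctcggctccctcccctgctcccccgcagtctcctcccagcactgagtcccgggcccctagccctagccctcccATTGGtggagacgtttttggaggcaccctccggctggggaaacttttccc
Col3a1: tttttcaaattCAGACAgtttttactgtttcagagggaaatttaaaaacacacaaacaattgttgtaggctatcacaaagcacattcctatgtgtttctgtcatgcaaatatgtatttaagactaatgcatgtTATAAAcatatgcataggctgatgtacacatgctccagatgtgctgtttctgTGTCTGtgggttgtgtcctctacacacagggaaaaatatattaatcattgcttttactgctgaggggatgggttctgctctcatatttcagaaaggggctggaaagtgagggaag

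The Col4a4 window held none of the 4 motifs, and of these 6 windows only that of Col3a1 held TATAAA. RefSeq windows were found for 35 of the 44 chains (38 windows). TATAAA lay in 5 of the 38 (13.6% of all 32851 windows), CCAAT in 13 (37.4%), GGGCGG in 23 (35.7%) and CAGACA in 9 (21.0%). A match here is a match of letters, not a measured site.

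Col4a6 had the largest rise of the 34 chains tested in FPC hepatocyte nuclei. Col4a6 in FPC hepatocyte nuclei stood at 1.06, 0.579, 0.592 and 0.60 CPM in controls, 5.39, 5.90, 5.85 and 8.20 CPM in mild mice and 36.4, 53.0 and 37.5 CPM in advanced mice. Col4a6 in FPC whole liver stood at 1.65, 2.31, 2.50 and 3.63 CPM in controls, 7.68, 11.6, 7.48 and 11.2 CPM in mild mice and 30.2, 47.3 and 44.6 CPM in advanced mice. The stages were separate in both fractions, and the advanced change was 5.48 ± 0.24 (edgeR adjusted p = 4.7e-09) in hepatocyte nuclei and 3.58 ± 0.25 (adjusted p = 1.8e-07) in whole liver. Col4a6 in CDAHFD hepatocyte nuclei stood at 0.478, 0.248, 0.733 and 0.534 CPM in controls, 2.79, 2.06, 7.08 and 7.50 CPM in mild mice and 11.9, 13.4 and 11.6 CPM in advanced mice. Col4a6 in CDAHFD whole liver stood at 2.18, 2.72, 2.88 and 3.82 CPM in controls, 6.19, 6.84, 9.83 and 10.2 CPM in mild mice and 13.8, 17.1 and 17.7 CPM in advanced mice. Stages were separate again, with advanced changes of 4.16 ± 0.47 (adjusted p = 1.9e-05) and 2.01 ± 0.23 (adjusted p = 9.6e-06).

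Col4a3, with Col4a4 and Col4a5, makes the trimer of the mature glomerular basement membrane. Col4a3 in FPC hepatocyte nuclei stood at 0.788, 1.25, 0.749 and 1.16 CPM in controls, 3.66, 5.31, 3.76 and 4.70 CPM in mild mice and 15.3, 46.7 and 33.8 CPM in advanced mice. Col4a3 in FPC whole liver stood at 4.83, 4.32, 2.94 and 3.03 CPM in controls, 5.05, 6.23, 4.16 and 7.12 CPM in mild mice and 16.8, 38.1 and 29.2 CPM in advanced mice. Advanced mice lay above all others in both fractions. Col4a3 in CDAHFD hepatocyte nuclei stood at 0.319, 0.851, 1.07 and 0.420 CPM in controls, 2.42, 1.95, 4.83 and 5.95 CPM in mild mice and 5.68, 7.99 and 7.76 CPM in advanced mice. Col4a3 in CDAHFD whole liver stood at 1.56, 1.32, 2.72 and 3.19 CPM in controls, 3.96, 4.62, 4.48 and 5.75 CPM in mild mice and 6.02, 8.31 and 7.06 CPM in advanced mice. The advanced change was 4.59 ± 0.34 and 2.44 ± 0.26 in FPC hepatocyte nuclei and whole liver, and 2.96 ± 0.45 and 1.23 ± 0.28 under CDAHFD (largest edgeR adjusted p = 0.0022). Its neighbour Col4a4 averaged 16.4 ± 8.39 against 1.04 ± 0.296 CPM in advanced and control FPC hepatocyte nuclei (3.55 ± 0.32), and 4.66 ± 2.49 against 0.853 ± 0.145 CPM under CDAHFD (1.96 ± 0.41).

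Col4a5 averaged 112 ± 23.8 CPM in advanced and 9.61 ± 2.35 CPM in control FPC hepatocyte nuclei, and 89.2 ± 14.6 and 11.5 ± 2.86 CPM in whole liver (SD, n = 3 and 4). The changes were 3.14 ± 0.24 and 2.51 ± 0.19. Under CDAHFD it averaged 71.3 ± 12.4 and 16.0 ± 1.84 CPM in hepatocyte nuclei, a change of 1.66 ± 0.15 (edgeR adjusted p = 2.8e-06). Advanced mice were also called above mild mice in all 4 settings (log2 1.03 to 1.99).

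Col4a1 and Col4a2 make the widespread trimer. Col4a1 in FPC hepatocyte nuclei stood at 10.8, 6.51, 23.0 and 14.5 CPM in controls, 36.5, 24.4, 32.0 and 34.7 CPM in mild mice and 47.8, 108 and 74.5 CPM in advanced mice. Col4a1 in FPC whole liver stood at 32.0, 27.1, 40.1 and 34.2 CPM in controls, 74.4, 80.1, 90.0 and 101 CPM in mild mice and 193, 219 and 159.7 CPM in advanced mice. No advanced library overlapped a control, and the changes were 2.06 ± 0.36 in hepatocyte nuclei and 2.07 ± 0.15 in whole liver. Col4a1 in CDAHFD hepatocyte nuclei stood at 14.4, 37.4, 23.5 and 15.9 CPM in controls, 67.1, 53.4, 75.7 and 88.7 CPM in mild mice and 97.1, 103 and 122 CPM in advanced mice. Col4a1 in CDAHFD whole liver stood at 60.9, 48.6, 50.4 and 62.3 CPM in controls, 82.6, 106, 109.9 and 106 CPM in mild mice and 137, 139.9 and 106 CPM in advanced mice. Advanced mice again lay above controls, by 1.76 ± 0.28 (edgeR adjusted p = 2.3e-04) in hepatocyte nuclei and 0.73 ± 0.14 (adjusted p = 5.4e-04) in whole liver.

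Col4a2 in FPC hepatocyte nuclei stood at 15.8, 8.29, 31.2 and 21.8 CPM in controls, 38.8, 24.4, 28.1 and 27.6 CPM in mild mice and 43.8, 68.4 and 58.4 CPM in advanced mice. Col4a2 in FPC whole liver stood at 32.6, 29.8, 49.9 and 46.1 CPM in controls, 72.3, 76.8, 82.3 and 89.1 CPM in mild mice and 178, 197 and 149.9 CPM in advanced mice. Both fractions separated advanced mice from controls, with changes of 1.14 ± 0.34 in hepatocyte nuclei (edgeR adjusted p = 0.016, and 0.060 without the mouse Advanced_6880) and 1.70 ± 0.18 in whole liver (adjusted p = 4.7e-06). Col4a2 in CDAHFD hepatocyte nuclei stood at 25.4, 66.2, 30.0 and 27.4 CPM in controls, 56.5, 49.9, 75.6 and 69.7 CPM in mild mice and 64.4, 74.1 and 83.7 CPM in advanced mice. Col4a2 in CDAHFD whole liver stood at 90.3, 61.3, 67.6 and 72.0 CPM in controls, 90.4, 111, 127 and 102 CPM in mild mice and 122, 132 and 104 CPM in advanced mice. The hepatocyte library of Control_9867 lay among the diseased ones at 66.2 CPM, and neither change was called (hepatocyte nuclei 0.51 ± 0.29, adjusted p = 0.15). Without that control the hepatocyte change was 0.92 (adjusted p = 7.2e-04). The gene bodies of Col4a1 and Col4a2 meet at their starts on opposite strands, and with the strand setting of the counting not given, reads there could be shared.

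**Figure D3:**
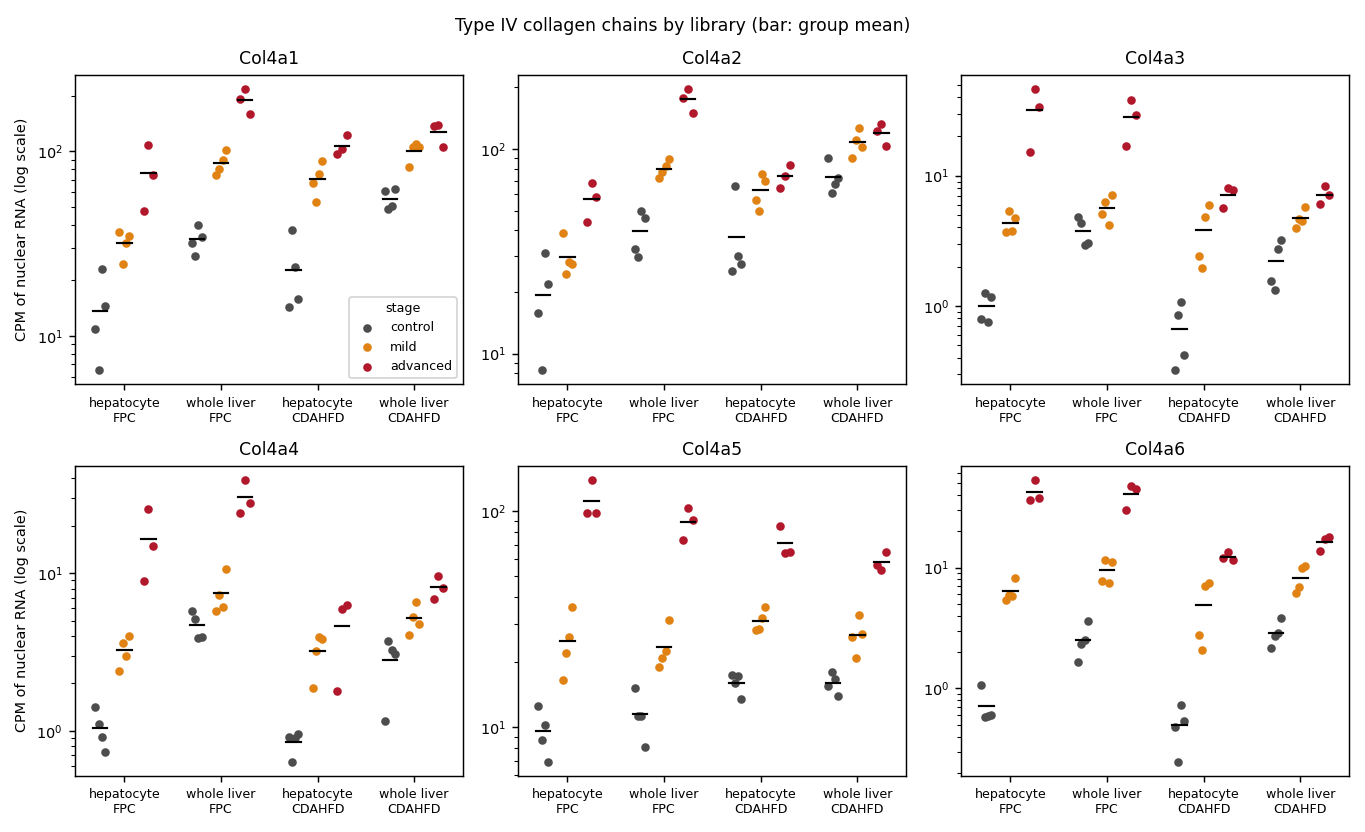
CPM on a log axis for the 6 type IV chains in each of the 44 libraries, by fraction and diet along the horizontal axis and by stage in colour (points: 1 mouse each, bars: group means). Advanced means lie above control means in every panel and setting. For Col4a3, Col4a5 and Col4a6 the advanced hepatocyte points reach the whole liver points, except for Col4a6 under CDAHFD, where they lie below them.

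Summed lists of genes known from other epithelia were also higher in advanced hepatocyte nuclei. Summed over 9 cholangiocyte markers, advanced FPC hepatocyte nuclei held 5103 ± 1301 CPM and controls 476 ± 32.6 CPM (SD, n = 3 and 4), and all 9 were called higher. Under CDAHFD the sums were 1886 ± 337 and 403 ± 55.0 CPM, with 8 of 9 called higher. Of all genes tested in hepatocyte nuclei, 26.5% rose under FPC and 30.3% under CDAHFD. The cholangiocyte list was not depleted in control hepatocyte nuclei, at 95.5% ± 3.25 (FPC) and 88.4% ± 13.6 (CDAHFD) of whole liver. Hepatocyte markers stood at 103% ± 3.21 and 102% ± 10.4 in the same mice, so the list does not set other nuclei apart here. The 5 mesothelial markers summed to 243 ± 26.7 and 7.55 ± 1.21 CPM in advanced and control FPC hepatocyte nuclei, and to 58.0 ± 9.35 and 5.17 ± 0.543 CPM under CDAHFD, nearly all of it Gpm6a. In hepatocyte nuclei 2 of 2 tested members were called higher under FPC and 1 of 2 under CDAHFD. Of the others, Upk3b was at 0 in FPC control and CDAHFD advanced hepatocyte nuclei and Lrrn4 in CDAHFD control ones. Which nuclei carried the RNA of the marker genes was not tested, nor was its relation to the rise of the type IV chains.

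The 2 remaining basement membrane chains went other ways. Col18a1 in FPC hepatocyte nuclei stood at 1117, 923, 1162 and 958 CPM in controls, 443, 1286, 992 and 948 CPM in mild mice and 553, 579.8 and 677 CPM in advanced mice. Col18a1 in FPC whole liver stood at 821, 783, 1251 and 1010.3 CPM in controls, 274, 963, 843 and 859 CPM in mild mice and 553, 435 and 477 CPM in advanced mice. All advanced libraries lay below all controls, and the mouse Mild_6825 was lower than any of them in both fractions. Col18a1 in CDAHFD hepatocyte nuclei stood at 796, 1176, 1549 and 854 CPM in controls, 1275, 1078, 876 and 1008 CPM in mild mice and 602, 733 and 756 CPM in advanced mice. Col18a1 in CDAHFD whole liver stood at 900.2, 624, 1328 and 729 CPM in controls, 561, 661, 489.9 and 566 CPM in mild mice and 443, 409 and 278 CPM in advanced mice. The advanced change was -1.19 ± 0.26 (edgeR adjusted p = 0.0025) and -1.42 ± 0.34 (adjusted p = 0.0035) in FPC hepatocyte nuclei and whole liver, and -1.14 ± 0.22 (adjusted p = 7.9e-04) and -1.71 ± 0.24 (adjusted p = 6.0e-05) under CDAHFD, so the most abundant chain per length was lower in all 4. Summed hepatocyte markers averaged 11033 ± 1627 CPM in advanced and 18069.9 ± 4231 CPM in control FPC hepatocyte nuclei, and 14448 ± 2016 and 19156 ± 4444 CPM in the CDAHFD study, and their part in this was not tested.

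Col15a1, a chain that sits where basement membranes meet fibrils, was called in whole liver under FPC and in hepatocyte nuclei under CDAHFD. Col15a1 in FPC hepatocyte nuclei stood at 28.2, 23.8, 22.4 and 21.0 CPM in controls, 14.9, 20.9, 18.8 and 23.2 CPM in mild mice and 22.3, 13.9 and 30.5 CPM in advanced mice. Col15a1 in FPC whole liver stood at 26.8, 22.5, 25.3 and 24.4 CPM in controls, 16.2, 20.8, 21.9 and 27.3 CPM in mild mice and 76.8, 73.6 and 68.3 CPM in advanced mice. In whole liver the advanced mice lay above all others, with a change of 1.12 ± 0.14 (edgeR adjusted p = 2.0e-05), against -0.49 ± 0.23 (adjusted p = 0.097) in hepatocyte nuclei. Col15a1 in CDAHFD hepatocyte nuclei stood at 10.52, 49.5, 20.6 and 42.3 CPM in controls, 16.1, 9.45, 14.2 and 15.3 CPM in mild mice and 11, 13.3 and 11.5 CPM in advanced mice. Col15a1 in CDAHFD whole liver stood at 42.8, 10.9, 19.1 and 37.0 CPM in controls, 22.7, 16.9, 30.7 and 28.9 CPM in mild mice and 36.6, 52.8 and 45.9 CPM in advanced mice. CDAHFD controls spread widely in both fractions and Control_9862 and Control_9867 held opposite ends. The hepatocyte change was -1.86 ± 0.44 (adjusted p = 0.0037) and the whole liver change 0.25 ± 0.39 (adjusted p = 0.61).

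Among the other types, 9 of 17 tested chains rose and 3 fell in FPC hepatocyte nuclei, 13 rose and 3 fell of 19 in FPC whole liver, 7 and 3 of 17 in CDAHFD hepatocyte nuclei, and 9 and 3 of 19 in CDAHFD whole liver. The shares of all genes that rose and fell were 26.5% and 20.4%, 31.3% and 28.0%, 30.3% and 29.2% and 29.7% and 25.9% in the same order. Type VI rose in both diets and fractions: Col6a1, Col6a2, Col6a3 and Col6a5 were called higher in all 4 comparisons, and Col6a6 in CDAHFD hepatocyte nuclei and FPC whole liver. In whole liver the 6 type VI chains summed to 338 ± 37.9 CPM in advanced and 29.5 ± 4.61 CPM in control FPC mice, and to 172 ± 34.4 and 31.4 ± 9.25 CPM under CDAHFD (SD, n = 3 and 4).

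Col6a3 is the long chain of the type VI filament, and its carboxyl end can be shed as endotrophin. Col6a3 in FPC hepatocyte nuclei stood at 1.77, 2.07, 1.34 and 2.19 CPM in controls, 10, 7.52, 7.03 and 12.1 CPM in mild mice and 19.2, 21.0 and 27.2 CPM in advanced mice. Col6a3 in FPC whole liver stood at 12.9, 14.4, 14.8 and 16.0 CPM in controls, 43.8, 49.9, 48.3 and 82.0 CPM in mild mice and 248, 231 and 197 CPM in advanced mice. The 3 stages were separate in hepatocyte nuclei and in whole liver, with advanced changes of 3.20 ± 0.24 (edgeR adjusted p = 3.5e-07) and 3.52 ± 0.20 (adjusted p = 2.9e-08). Col6a3 in CDAHFD hepatocyte nuclei stood at 1.83, 1.31, 3.22 and 2.10 CPM in controls, 10.1, 11.2, 16.6 and 13.2 CPM in mild mice and 10.4, 21.2 and 14.2 CPM in advanced mice. Col6a3 in CDAHFD whole liver stood at 9.70, 15.7, 19.5 and 20.6 CPM in controls, 71.3, 72.5, 119.8 and 94.0 CPM in mild mice and 98.4, 154 and 123 CPM in advanced mice. Diseased and control mice did not overlap, and the advanced changes were 2.37 ± 0.31 in hepatocyte nuclei and 2.47 ± 0.26 in whole liver.

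Col6a1 and Col6a2, the short partners of Col6a3, averaged 30.9 ± 6.15 and 33.0 ± 5.47 CPM in advanced FPC whole livers, against 4.50 ± 0.418 and 3.18 ± 0.574 CPM in controls. Their changes were 2.34 ± 0.19 and 2.93 ± 0.23. Col6a5, which can replace Col6a3 in the trimer, reached 11.3 ± 5.43 CPM in advanced against 1.58 ± 1.06 CPM in control FPC whole livers (2.44 ± 0.49). In CDAHFD hepatocyte nuclei it stayed under 1 CPM, and its call there (1.51 ± 0.53, edgeR adjusted p = 0.027) was lost on leaving out any of 4 single mice (adjusted p up to 0.072). The change of Col6a6 in whole liver differed between the diets, as tested below: advanced livers averaged 37.5 ± 17.2 CPM under FPC, against 5.66 ± 2.0 CPM in controls (2.28 ± 0.36), and 10.3 ± 0.385 against 5.73 ± 1.65 CPM under CDAHFD (0.39 ± 0.21, adjusted p = 0.14).

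Of the fibril-associated chains, Col16a1 rose most. Col16a1 in CDAHFD hepatocyte nuclei stood at 0.319, 0.284, 0.677 and 0.114 CPM in controls, 3.63, 2.99, 4.78 and 4.87 CPM in mild mice and 6.61, 14.1 and 8.99 CPM in advanced mice. Col16a1 in CDAHFD whole liver stood at 1.69, 2.04, 2.51 and 3.04 CPM in controls, 4.14, 7.33, 10.3 and 8.67 CPM in mild mice and 9.41, 12 and 5.62 CPM in advanced mice. Hepatocyte nuclei showed the wider rise, 4.39 ± 0.42 (edgeR adjusted p = 5.2e-06) against 1.48 ± 0.32 (adjusted p = 0.0016). Col16a1 in FPC hepatocyte nuclei stood at 0.237, 0.0482, 0.355 and 0.129 CPM in controls, 1.46, 2.11, 1.52 and 3.39 CPM in mild mice and 2.84, 14.6 and 7.68 CPM in advanced mice. Col16a1 in FPC whole liver stood at 1.13, 1.69, 1.49 and 2.02 CPM in controls, 3.87, 7.49, 5.82 and 9.46 CPM in mild mice and 16.5, 17.0 and 12.3 CPM in advanced mice. Advanced mice lay above controls in both, by 4.93 ± 0.59 (adjusted p = 1.9e-05) and 2.84 ± 0.28 (adjusted p = 2.8e-06).

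Col14a1 (undulin) binds type I fibrils through decorin. Col14a1 in FPC hepatocyte nuclei stood at 8.0, 6.12, 4.22 and 6.61 CPM in controls, 30.8, 14.5, 17.3 and 17.1 CPM in mild mice and 20.6, 13.8 and 17.8 CPM in advanced mice. Col14a1 in FPC whole liver stood at 48.3, 50, 38.6 and 49.9 CPM in controls, 145, 86.9, 101 and 109 CPM in mild mice and 192, 147 and 135 CPM in advanced mice. Diseased mice lay above controls in both fractions, mild and advanced overlapped, and the advanced changes were 1.09 ± 0.29 in hepatocyte nuclei and 1.33 ± 0.19 in whole liver. Col14a1 in CDAHFD hepatocyte nuclei stood at 3.79, 4.04, 5.47 and 4.81 CPM in controls, 7.79, 11.3, 9.55 and 11.2 CPM in mild mice and 5.76, 9.81 and 6.52 CPM in advanced mice. Col14a1 in CDAHFD whole liver stood at 40.7, 47.9, 53.9 and 64.6 CPM in controls, 89.5, 85, 104 and 91.2 CPM in mild mice and 70.6, 93.1 and 100.5 CPM in advanced mice. Neither advanced change was called under CDAHFD (whole liver 0.30 ± 0.16, edgeR adjusted p = 0.13), whereas mild mice were called higher in both fractions (0.79 ± 0.20 in hepatocyte nuclei and 0.45 ± 0.15 in whole liver). Col12a1, its relative on type I fibrils, averaged 9.93 ± 2.4 CPM in advanced and 3.41 ± 0.839 CPM in control FPC hepatocyte nuclei (1.16 ± 0.23) and 17.3 ± 2.52 and 3.94 ± 0.789 CPM in whole liver (1.70 ± 0.18).

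Col20a1, another fibril-associated chain, fell with Col27a1. Col20a1 in CDAHFD hepatocyte nuclei stood at 14.3, 13.4, 15.1 and 31.7 CPM in controls, 4.24, 2.71, 2.74 and 3.92 CPM in mild mice and 1.63, 2.55 and 3.74 CPM in advanced mice. Col20a1 in CDAHFD whole liver stood at 11.6, 12.3, 15.5 and 31.8 CPM in controls, 4.36, 4.38, 5.45 and 7.25 CPM in mild mice and 5.64, 5.31 and 5.29 CPM in advanced mice. Diseased mice were all below controls, and the mouse Control_10113 was again the highest in both fractions. The advanced changes were -3.29 ± 0.40 (edgeR adjusted p = 3.4e-05) and -2.19 ± 0.35 (adjusted p = 1.8e-04). Col20a1 in FPC hepatocyte nuclei stood at 7.61, 8.34, 9.55 and 10.1 CPM in controls, 5.12, 6.64, 4.86 and 5.59 CPM in mild mice and 4.35, 7.95 and 6.13 CPM in advanced mice. Col20a1 in FPC whole liver stood at 6.57, 7.54, 11.2 and 13.1 CPM in controls, 6.68, 6.65, 7.02 and 7.86 CPM in mild mice and 6.33, 8.64 and 7.10 CPM in advanced mice. Advanced and control mice overlapped in both FPC fractions. The changes were -0.96 ± 0.21 (adjusted p = 0.0022) and -0.83 ± 0.23 (adjusted p = 0.0074), and scaled by library totals they were -0.54 and -0.38 and neither was called (adjusted p = 0.055 and 0.16).

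Col9a3, Col19a1 and Col22a1, the other tested fibril-associated chains, were low, with group means of at most 2.12 CPM. Col9a3 was called higher in 3 of 4 comparisons (FPC hepatocyte nuclei 1.82 ± 0.40, FPC whole liver 1.32 ± 0.28, CDAHFD whole liver 0.99 ± 0.39, the last lost without any of 5 single mice), Col19a1 in FPC whole liver (1.49 ± 0.46) and Col22a1 in both CDAHFD fractions (1.51 ± 0.52 and 1.41 ± 0.41, lost without the mouse Advanced_9845). The body of Col9a3 overlaps Tcfl5 on the other strand.

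Among the 3 tested transmembrane chains no rise was called in advanced mice. Col25a1, whose shed form is known from amyloid plaques, spread widely between mice. Col25a1 in FPC hepatocyte nuclei stood at 12.3, 39.6, 18.3 and 57.2 CPM in controls, 25.2, 1.08, 5.17 and 1.72 CPM in mild mice and 2.65, 4.89 and 2.66 CPM in advanced mice. Col25a1 in FPC whole liver stood at 15.1, 33.9, 16.9 and 52.7 CPM in controls, 23.9, 2.94, 4.42 and 3.21 CPM in mild mice and 7.08, 11.9 and 8.30 CPM in advanced mice. Advanced mice lay below controls, controls spread several-fold, and the mouse Mild_6825 lay within the control range in both fractions. Col25a1 in CDAHFD hepatocyte nuclei stood at 5.86, 13.2, 7.50 and 3.13 CPM in controls, 1.45, 1.57, 6.87 and 2.77 CPM in mild mice and 3.11, 1.40 and 4.11 CPM in advanced mice. Col25a1 in CDAHFD whole liver stood at 13.8, 8.39, 9.13 and 4.07 CPM in controls, 2.76, 3.89, 5.98 and 3.94 CPM in mild mice and 3.86, 4.67 and 8.6 CPM in advanced mice. All 4 advanced changes were called lower (-3.68 ± 1.09, edgeR adjusted p = 0.018, and -2.16 ± 0.77, adjusted p = 0.031, in FPC hepatocyte nuclei and whole liver, -1.81 ± 0.62, adjusted p = 0.025, and -1.08 ± 0.39, adjusted p = 0.033, under CDAHFD). Each of these calls was lost on leaving out 1 of 2 to 5 mice, with adjusted p of 0.053 to 0.12.

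Col13a1, a transmembrane chain of cell-matrix contacts, was called lower in advanced whole livers, at 20.4 ± 1.77 against 22.3 ± 1.67 CPM under FPC (-0.57 ± 0.12) and 20.7 ± 1.82 against 26.5 ± 12.6 CPM under CDAHFD (-0.82 ± 0.32). By library totals neither was called (edgeR adjusted p = 0.32 and 0.35). The advanced change of Col23a1 in hepatocyte nuclei differed between the diets, as tested below. Mild FPC mice were called higher than controls in hepatocyte nuclei, at 12.6 ± 4.75 against 5.11 ± 1.39 CPM (1.07 ± 0.31, adjusted p = 0.019), and advanced CDAHFD mice lower, at 3.55 ± 0.862 against 6.35 ± 1.244 CPM (-1.32 ± 0.25, adjusted p = 6.6e-04).

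Col7a1, the chain of the anchoring fibrils of skin, was low and was called in 1 of the 4 advanced comparisons. Col7a1 in FPC hepatocyte nuclei stood at 1.26, 1.54, 1.46 and 2.10 CPM in controls, 0.693, 1.62, 0.874 and 1.2 CPM in mild mice and 0.0653, 0.842 and 0.386 CPM in advanced mice. Col7a1 in FPC whole liver stood at 1.52, 1.06, 1.86 and 2.91 CPM in controls, 0.726, 1.75, 1.46 and 2.13 CPM in mild mice and 0.937, 2.33 and 1.61 CPM in advanced mice. Advanced mice were below controls in hepatocyte nuclei (-2.40 ± 0.56, edgeR adjusted p = 0.0033), and the groups overlapped in whole liver. Col7a1 in CDAHFD hepatocyte nuclei stood at 2.59, 2.23, 1.86 and 1.18 CPM in controls, 3.35, 3.69, 2.74 and 2.03 CPM in mild mice and 0.934, 1.73 and 2.05 CPM in advanced mice. Col7a1 in CDAHFD whole liver stood at 1.11, 1.52, 1.55 and 1.81 CPM in controls, 1.96, 2.71, 2.80 and 2.70 CPM in mild mice and 2.26, 2.81 and 2.09 CPM in advanced mice. Neither CDAHFD change was called (adjusted p = 0.072 and 0.49). Of the short network chains, Col8a1 averaged 30.7 ± 4.43 CPM in advanced and 7.12 ± 0.753 CPM in control FPC whole livers (1.67 ± 0.17), and Col8a2 1.06 ± 0.394 and 0.190 ± 0.0551 CPM (2.04 ± 0.37). Col28a1 was called higher in both whole liver comparisons (2.13 ± 0.52 and 1.92 ± 0.54) from control means under 0.3 CPM.

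**Figure D4:**
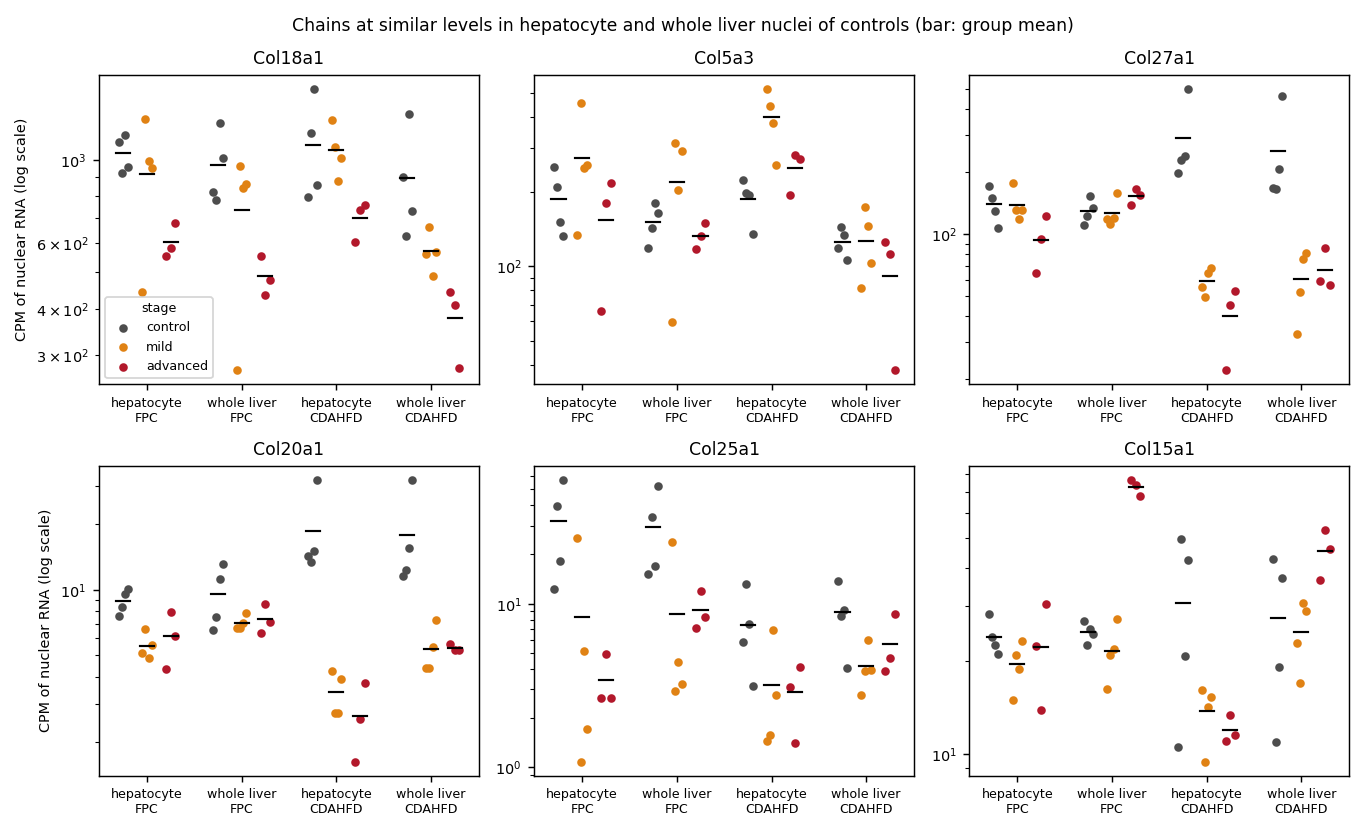
CPM on a log axis for 6 chains whose control levels were similar in hepatocyte and whole liver nuclei, in each of the 44 libraries by fraction, diet and stage (points: 1 mouse each, bars: group means). Col27a1 and Col20a1 drop under CDAHFD in both fractions, Col18a1 is lower in advanced mice in all 4 blocks, and Col15a1 is higher in advanced mice of the FPC study in whole liver only.

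The mild stage already carried many of these changes. Against controls in FPC hepatocyte nuclei, 19 of 34 tested chains rose and 1 fell, where 21.8% of all genes tested rose and 11.3% fell. In FPC whole liver, 19 of 36 tested chains rose and 4 fell, where 25.0% of all genes tested rose and 18.2% fell. In CDAHFD hepatocyte nuclei, 18 of 33 tested chains rose and 5 fell, where 29.6% of all genes tested rose and 26.7% fell, and in CDAHFD whole liver 13 of 36 tested chains rose and 5 fell, where 27.7% of all genes tested rose and 24.5% fell. The mild log2 change of Col1a1 was 2.97 and 2.49 in FPC hepatocyte nuclei and whole liver, and 2.73 and 2.19 under CDAHFD. For Col16a1 the mild changes were 3.13 and 3.26 in FPC and CDAHFD hepatocyte nuclei, and for Col4a6 2.90 and 2.95. In FPC mild mice Col4a3 and Col4a4 were called in hepatocyte nuclei (1.90 ± 0.32 and 1.39 ± 0.31) and not in whole liver (0.28 ± 0.25, edgeR adjusted p = 0.38, and 0.38 ± 0.21, adjusted p = 0.16), and the difference between fractions at this stage was not tested. Col5a1 was called in mild but not in advanced hepatocyte nuclei, at 10.51 ± 1.69 CPM in mild and 3.18 ± 1.2 CPM in control FPC mice (1.5 ± 0.26).

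Between advanced and mild disease more chains were called under FPC than under CDAHFD, a difference not tested at this step. In FPC hepatocyte nuclei, 9 of 34 tested chains rose and 3 fell, where 12.7% of all genes tested rose and 7.49% fell, and in FPC whole liver 19 of 36 tested chains rose and 1 fell, where 13.3% of all genes tested rose and 8.98% fell (median change of the chains there 0.99). Type IV accounted for 5 of the 9 rises in hepatocyte nuclei (Col4a1, Col4a3, Col4a4, Col4a5 and Col4a6, log2 1.09 to 2.69), and Col1a1 (0.79 ± 0.26), Col6a3 (1.13 ± 0.22), Col9a3 and Col16a1 for the rest. The 3 that fell were Col13a1 (-1.51 ± 0.36), Col24a1 (-2.29 ± 0.54) and Col27a1 (-0.74 ± 0.21). In CDAHFD hepatocyte nuclei, 1 of 33 tested chains rose and 0 fell, where 1.3% of all genes tested rose and 1.52% fell, and in CDAHFD whole liver 1 of 36 tested chains rose and 0 fell, where 0.83% of all genes tested rose and 1.05% fell. At an unadjusted p under 0.05 edgeR had 5 chains lower in hepatocyte nuclei and 3 in whole liver, and DESeq2 called 2 and 1. Col4a5 was the chain called in both (1.05 ± 0.14 and 1.03 ± 0.15).

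Set against whole liver nuclei of the same mice, hepatocyte nuclei split the chains into kinds. In advanced FPC mice 0 of 36 tested chains were called higher and 24 lower in hepatocyte nuclei, where 4.83% and 17.7% of all genes were. The counts were 0 and 19 in mild mice (7.19% and 19.0% of all genes) and 0 and 20 in controls (1.35% and 16.2%). Under CDAHFD 2 chains were called higher and 16 lower in advanced mice (20.1% and 23.0% of all genes), 3 and 18 in mild mice (23.1% and 27.6%), and 1 and 19 in controls (14.6% and 16.4%). In these fits without the mouse as a block, the FPC count of chains higher in hepatocyte nuclei was also 0 at an unadjusted p under 0.05 by edgeR and 0 by DESeq2 at each stage. Both libraries of a mouse share the animal, and with the mouse as a block Col18a1 was called higher in hepatocyte nuclei of advanced (0.38 ± 0.11, adjusted p = 0.016), mild (0.52 ± 0.10, adjusted p = 5.7e-04) and control (0.29 ± 0.10, adjusted p = 0.033) FPC mice, and Col4a5 in advanced ones (0.39 ± 0.10, adjusted p = 0.0049). That made 2, 1 and 1 of 36 chains, where 22.2%, 27.6% and 21.4% of all genes were called higher. Under CDAHFD the block called Col4a5, Col5a3 and Col18a1 higher in advanced and mild mice and Col18a1 in controls (25.8%, 28.4% and 25.9% of all genes). The chains called higher under CDAHFD without the block were Col18a1 (advanced 0.99 ± 0.25, mild 1.02 ± 0.21), Col5a3 (advanced 1.53 ± 0.35, mild 1.79 ± 0.30, control 0.79 ± 0.30, the last lost without Control_9862 and Control_9867) and Col4a5 (mild 0.35 ± 0.14, not called by library totals).

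The first kind stood low in hepatocyte nuclei, within the range of the lists of other cell types. In advanced and control mice of both diets, the sum of types I, III and V without Col5a3 lay near endothelial and below stellate markers. Col1a1 in hepatocyte nuclei was 10.1% ± 4.59 of its level in whole liver of the same mouse in advanced and 11.5% ± 3.51 in control FPC mice (mean ± SD, n = 3 and 4), and 24.4% ± 10.6 and 18.6% ± 10.3 under CDAHFD. Col6a3 stood at 10.2% ± 3.16 and 12.7% ± 2.47 (FPC) and Col14a1 at 11.1% ± 1.95 and 13.2% ± 2.42, while endothelial markers stood at 10.7% ± 2.39 and 9.11% ± 0.846 and stellate markers at 25.4% ± 2.52 and 21.3% ± 4.77. Other lists gave, in advanced and control FPC mice, 24.6% ± 7.03 and 34.1% ± 9.02 for portal fibroblasts, 6.0% ± 2.53 and 11.4% ± 2.86 for smooth muscle, 13.3% ± 1.10 and 8.38% ± 0.888 for Kupffer cells, 25.2% ± 5.23 and 34.4% ± 3.48 for recruited macrophages and 64.7% ± 33.1 and 37.1% ± 13.3 for lymphocytes. Summed over types I, III and V without Col5a3, hepatocyte nuclei held 9.32% ± 3.07 of the whole liver level in advanced and 11.9% ± 2.88 in control FPC mice, and 15.9% ± 0.694 and 10.7% ± 2.90 under CDAHFD (controls 10.4% ± 0.920 with the hepatocyte libraries of Control_9862 and Control_9867 exchanged). In mild mice they held 15.6% ± 3.75 under FPC and 15.6% ± 0.908 under CDAHFD. The ratio was thus lower in advanced than in control mice under FPC and higher under CDAHFD, and these ratios were not tested. How much of the signal of these chains in hepatocyte nuclei came from carried-over nuclei was not tested.

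The second kind stood near the whole liver level in controls. In FPC controls these were Col18a1 (110.4% ± 20.5), Col5a3 (131% ± 62.0), Col27a1 (110.1% ± 34.7), Col25a1 (104% ± 15.4), Col20a1 (97.2% ± 18.8), Col15a1 (96.5% ± 10.6), Col7a1 (94.6% ± 33.9), Col12a1 (86.2% ± 9.77) and Col4a5 (83.9% ± 5.54). Summed hepatocyte markers stood at 103% ± 3.21. In advanced FPC mice several of these were lower relative to whole liver: Col27a1 stood at 61.2% ± 16.4, Col25a1 at 36.8% ± 4.57, Col15a1 at 30.8% ± 13 and Col7a1 at 22.3% ± 14.6. Hepatocyte markers were at 129.5% ± 1.82 in the same mice.

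For a few chains the ratio itself was higher in disease. Col4a3 in hepatocyte nuclei reached 109.6% ± 16.6 of whole liver in advanced against 27.3% ± 9.05 in control FPC mice, Col4a6 106% ± 19.0 against 32.4% ± 21.6, and Col16a1 55.2% ± 34.9 against 13.5% ± 10.4. Under CDAHFD Col16a1 stood at 116% ± 44.8 against 15.9% ± 9.72, Col4a6 at 76.7% ± 10.7 against 17.6% ± 7.42 and Col4a3 at 100.2% ± 8.50 against 34.4% ± 22.9. The hepatocyte differences of Col16a1 under FPC and of Col4a3 under CDAHFD were not called by the test given below. Cholangiocyte markers stood at 145% ± 8.67 against 95.5% ± 3.25 in advanced and control FPC mice and 100.0% ± 0.730 against 88.4% ± 13.6 under CDAHFD, and mesothelial markers at 106% ± 14.4 against 30.5% ± 3.89 and at 46.2% ± 7.07 against 21.4% ± 1.33. With the hepatocyte libraries of Control_9862 and Control_9867 exchanged, cholangiocyte markers stood at 87.7% ± 3.55 in CDAHFD controls. The part of both marker lists in the ratios of the chains was not tested.

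**Figure D5:**
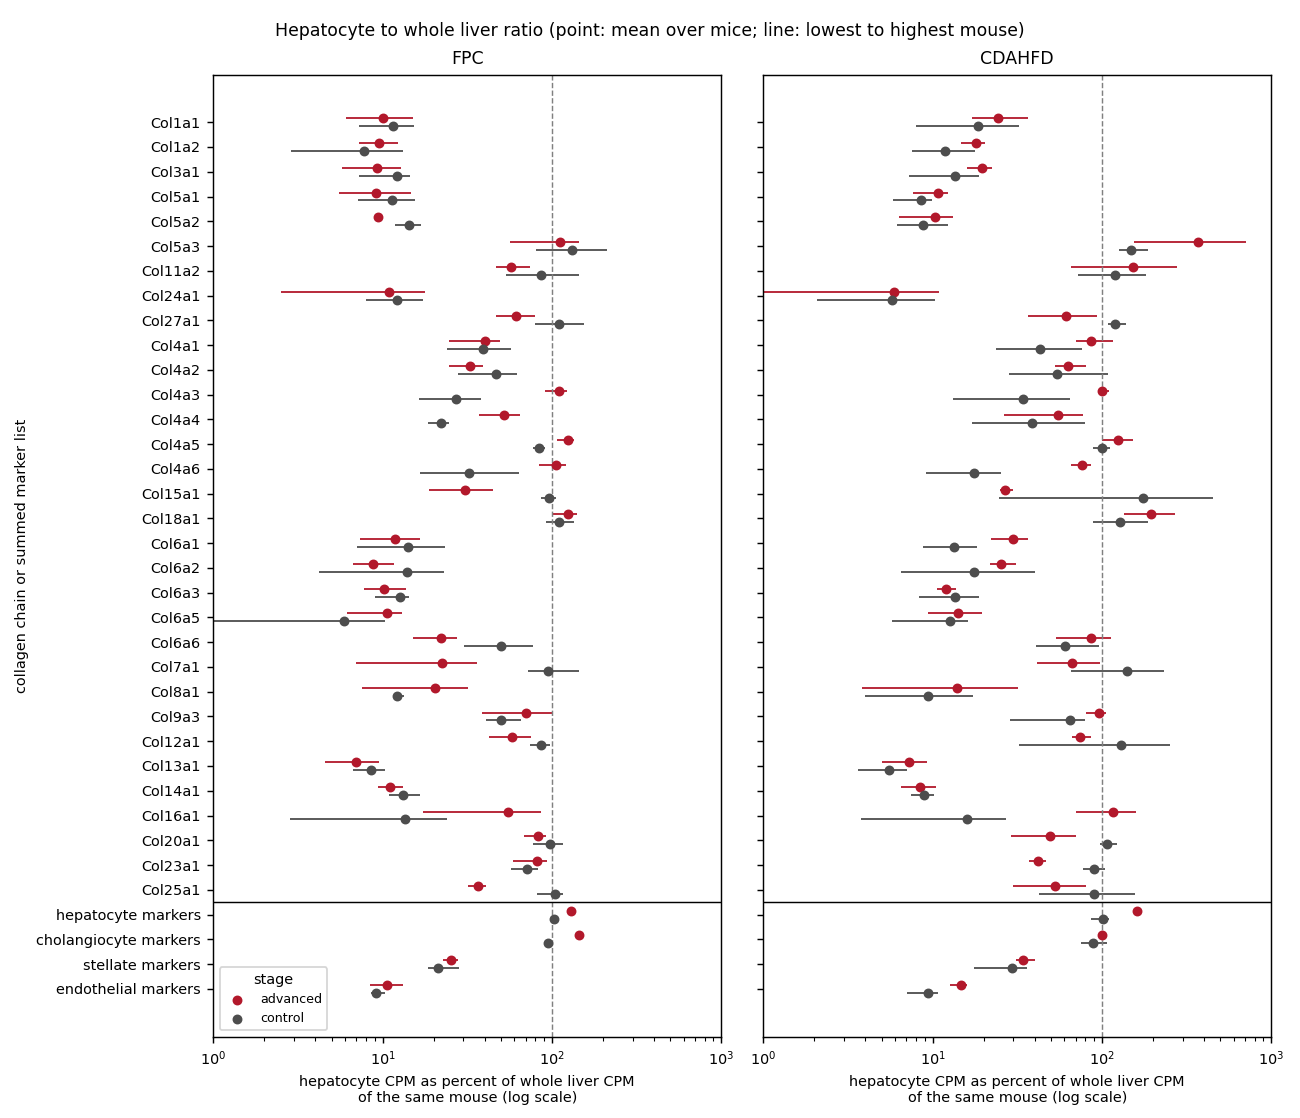
Hepatocyte CPM as a percentage of whole liver CPM of the same mouse, on a log axis, for each chain with enough counts and for 4 summed marker lists, in advanced (red) and control (grey) mice of the FPC (left) and CDAHFD (right) studies. Points are means over 3 or 4 mice and lines run from the lowest to the highest mouse, cut at 1% where a mouse had 0. Type I and III chains lie with the endothelial and stellate lists, and advanced points of Col4a3, Col4a6 and Col16a1 lie to the right of their controls.

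The test of the difference itself, the advanced change in hepatocyte nuclei minus that in whole liver, called 2 chains higher and 1 lower of 36 under FPC (3.82% of all genes in either direction) and 2 and 2 under CDAHFD (10.2%). Under FPC Col4a3 (2.02 ± 0.43, edgeR adjusted p = 0.0066, and 0.058 without Control_6816) and Col4a6 (1.77 ± 0.35, adjusted p = 0.0036) rose more in hepatocyte nuclei, and Col15a1 was lower there relative to whole liver (-1.74 ± 0.28, adjusted p = 5.3e-04). Under CDAHFD Col16a1 (2.82 ± 0.56, adjusted p = 0.0026) and Col4a6 (2.06 ± 0.53, adjusted p = 0.016) rose more in hepatocyte nuclei, and Col15a1 (-2.21 ± 0.62, adjusted p = 0.027) and Col23a1 (-1.19 ± 0.32, adjusted p = 0.022) were lower there relative to whole liver. Without Control_9862 and Control_9867 the Col4a6 and Col23a1 calls were lost (adjusted p = 0.10 and 0.096), and the Col15a1 call was lost without any one advanced mouse (adjusted p = 0.065 to 0.11), without Control_9867 (adjusted p = 0.069) and in the blocked fit described next (-2.16, adjusted p = 0.071). Col4a1 rose more in hepatocyte nuclei (1.14, adjusted p = 0.028) once both of those controls were left out.

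The same test was also run with the mouse as a block. Under CDAHFD this block pairs the libraries of Control_9862 and Control_9867 by label, although they deviated crosswise. Its value for Col15a1 rests on that pairing. Under FPC the block called 4 chains higher and 8 lower (9.45% of all genes), adding Col4a4 (1.10) and Col4a5 (0.48) to those that rose more in hepatocyte nuclei. Col5a2, Col6a6, Col7a1, Col12a1, Col19a1, Col25a1 and Col27a1 were added to those that rose less or fell more there (-2.0 to -0.69). Under CDAHFD the block called 3 higher (Col4a3, Col4a6 and Col16a1) and 3 lower (Col20a1, Col23a1 and Col27a1), where 18.0% of all genes were called, and with the hepatocyte libraries of Control_9862 and Control_9867 exchanged, 6 and 5 (29.6%).

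To compare the diets, the advanced change under FPC, against its own controls, was subtracted from that under CDAHFD. Diet, its duration and the study cannot be told apart. In whole liver 9 of 36 chains were called lower under CDAHFD and 0 higher (0 higher at an unadjusted p under 0.05 by edgeR and 0 by DESeq2), where 4.67% of all genes were called in either direction. These were Col27a1 (-2.17 ± 0.44, edgeR adjusted p = 0.0072), Col6a6 (-1.90 ± 0.44), Col3a1 (-1.60 ± 0.38, adjusted p = 0.019), Col4a6 (-1.57 ± 0.35), Col4a2 (-1.46 ± 0.24), Col4a1 (-1.35 ± 0.20, adjusted p = 9.3e-04), Col8a1 (-1.33 ± 0.24), Col4a5 (-1.13 ± 0.25) and Col14a1 (-1.04 ± 0.27). Without Control_9862 and Control_9867, 19 chains were called, all lower under CDAHFD, with Col1a1, Col1a2, Col6a1, Col6a2 and Col6a3 among them, and without Control_9862 alone 17 were. The share of all genes called in these refits is not given here, so the counts of 19 and 17 have no background beside them. Calls of Col14a1, Col3a1 and Col6a6 were lost on leaving out 1 mouse each of several. In hepatocyte nuclei 4 of 34 were called (11.9% of all genes), all lower under CDAHFD (2 chains were higher at an unadjusted p under 0.05 by edgeR and 2 by DESeq2): Col27a1 (-2.35 ± 0.43), Col20a1 (-2.27 ± 0.44), Col23a1 (-1.95 ± 0.43) and Col4a5 (-1.42 ± 0.28, edgeR adjusted p = 0.0044). For the type I chains the hepatocyte differences were -0.68 ± 0.45 (Col1a1, adjusted p = 0.33) and -0.63 ± 0.58 (Col1a2, adjusted p = 0.49).

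Genes that make, process and bind collagen were read beside the chains. Over 6 lists (61 genes), 29 of 54 tested genes rose and 8 fell in advanced FPC hepatocyte nuclei, 36 and 11 of 59 in FPC whole liver, 23 and 9 of 51 in CDAHFD hepatocyte nuclei, and 28 and 11 of 59 in CDAHFD whole liver. Of all genes tested, 26.5% and 20.4% rose and fell in FPC hepatocyte nuclei, 31.3% and 28.0% in FPC whole liver, 30.3% and 29.2% in CDAHFD hepatocyte nuclei and 29.7% and 25.9% in CDAHFD whole liver, and the counts below stand against these shares. Of the 19 folding and modifying enzymes and chaperones, 11 rose and 3 fell in FPC whole liver (31.3% and 28.0% of all genes). Plod2, the lysyl hydroxylase of the telopeptides, rose by 3.99 ± 0.34 in FPC hepatocyte nuclei and 2.97 ± 0.15 in whole liver (edgeR adjusted p = 9.5e-07 and 1.2e-08), and the procollagen chaperone Serpinh1 (HSP47) by 2.71 ± 0.39 and 2.47 ± 0.27. Ppib, a prolyl isomerase of the endoplasmic reticulum, fell in all 4 comparisons (-0.52 in FPC whole liver to -1.31 in CDAHFD whole liver).

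Of 8 secretion genes, 1 rose and 2 fell in FPC hepatocyte nuclei and 1 and 5 in FPC whole liver, where 26.5% and 20.4% (hepatocyte nuclei) and 31.3% and 28.0% (whole liver) of all genes rose and fell. Creb3l1, a transcription factor of secretory cells, rose (2.71 ± 0.31 and 2.41 ± 0.15), and Sar1b, a coat GTPase that also serves lipoprotein export, fell (-1.16 ± 0.17 and -1.40 ± 0.16). Among the propeptide proteases and their enhancers, 5 of 7 rose in FPC whole liver (31.3% of all genes). Adamts14, an aminopropeptidase, rose by 2.41 ± 0.19 there and by 4.88 ± 0.40 and 5.20 ± 0.38 in FPC and CDAHFD hepatocyte nuclei, whereas Bmp1, the carboxypropeptidase, fell in all 4 (-1.0 to -1.52). Of the crosslinking enzymes 5 of 6 rose in FPC whole liver and 4 of 6 under CDAHFD (31.3% and 29.7% of all genes), among them Lox (2.95 ± 0.46 and 1.49 ± 0.58) and Loxl1 (3.29 ± 0.23 and 2.27 ± 0.31). Pxdn, which crosslinks type IV collagen, rose by 2.46 ± 0.21 and 1.94 ± 0.44 in FPC and CDAHFD hepatocyte nuclei and by 0.74 ± 0.13 in FPC whole liver, and was not called in CDAHFD whole liver (0.24 ± 0.16, edgeR adjusted p = 0.24).

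Of the fibril-binding proteins 8 of 10 rose in FPC whole liver and 5 of 9 under CDAHFD (31.3% and 29.7% of all genes), with the small proteoglycan Lum at 3.49 ± 0.34 and 1.09 ± 0.33. Fn1 (fibronectin), which hepatocytes secrete into plasma, fell in all 4 comparisons (-0.78 to -1.48). Among collagen receptors 6 of 9 rose in FPC hepatocyte nuclei and 6 of 9 in FPC whole liver (26.5% and 31.3% of all genes). Ddr1, a receptor kinase of epithelial cells, rose by 6.22 ± 0.44 and 6.71 ± 0.37 in FPC and CDAHFD hepatocyte nuclei, and the integrin chain Itga2 by 6.73 ± 0.36 and 5.89 ± 0.59. Ddr2, the fibroblast receptor kinase, rose by 1.35 ± 0.26 in FPC hepatocyte nuclei and 2.02 ± 0.14 in whole liver, and Itga1 fell in hepatocyte nuclei of both diets (-0.48 ± 0.13 and -1.60 ± 0.12).

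Summed over all 44 chains, rises and falls partly offset each other. Hepatocyte nuclei of advanced FPC mice held 1362 ± 229 CPM and controls 1512 ± 139.9 CPM, and those of the CDAHFD study 1401 ± 165 and 1747 ± 332 CPM (SD, n = 3 and 4). In whole liver the sums were 2546 ± 246 and 1602 ± 269 CPM under FPC and 1539.7 ± 204 and 1697 ± 340.4 CPM under CDAHFD. In FPC whole liver the basement membrane sum was 1115 ± 58.5 CPM in advanced and 1086 ± 227 CPM in control mice, and with TMM-scaled CPM 932 and 1207, so its direction depends on the scaling. By class, basement membrane chains of advanced FPC hepatocyte nuclei summed to 961 ± 118 CPM (controls 1109 ± 131), fibrillar chains to 295 ± 107 CPM (controls 335 ± 82.5) and other chains to 105 ± 7.16 CPM (controls 67.4 ± 23.9). With TMM-scaled CPM the other chains came closer together, at 95.2 in advanced and 88.2 in control FPC hepatocyte nuclei. The hepatocyte to whole liver ratio of the fibrillar sum was 38.5% ± 18.9 in advanced and 97.9% ± 36.6 in control FPC mice, that of the basement membrane sum 86.5% ± 13.2 and 104% ± 17.4, and that of the other chains 17.3% ± 2.84 and 40.9% ± 8.39. Under CDAHFD the 3 ratios were 79.0% ± 25.4, 133% ± 31.9 and 23.0% ± 1.63 in advanced mice, against 108% ± 11.7, 116% ± 41.3 and 34.8% ± 5.69 in controls. The fibrillar sum mixes chains of the first and second kinds, so its ratio also moves with their shares. Types I, III and V without Col5a3 stood at 9.32% ± 3.07 in advanced and 11.9% ± 2.88 in control FPC mice, and at 15.9% ± 0.694 and 10.7% ± 2.90 under CDAHFD.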

How the data were processed

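The authors deposited raw counts per RefSeq transcript identifier for 44 libraries of nuclear RNA, made per the labels' protocols with a stranded kit without poly-A selection and sequenced as 50-base read pairs. STAR 2.4.2a, DESeq2 1.24.0 and mm10 are named per the submitters' processing notes, while the counter and its strand setting are not given in the sources used here. The deposited gene lengths equal the span with introns for 94.7% of identifiers listed, so intronic reads count. The authors' deposited table of changes holds log2 fold changes and p-values, and these changes were read only for direction. It also supplied symbols, positions, strands and counted lengths of the identifiers it lists. For the others the gene length came from RefSeq. RefSeq supplied the symbols of 23 chains and the authors' table those of 21, over all identifiers 6879 and 13147, with 79 unnamed. Quasi-likelihood tests used edgeR 4.0.16 in R 4.3.3 (TMM scaling, filterByExpr, robust fits, Benjamini-Hochberg over all genes tested, threshold 0.05), tested on simulated data. Each fraction and diet was fitted alone, the fraction comparisons per diet and the diet comparison per fraction. Alternatives were DESeq2 1.42.0, other scalings and filters, the mouse as a block and each mouse left out. Replicates are separate mice. For 20 of 22 mice the libraries of both fractions deviated together (r over 0.1, 14627 genes), which is how the pairing was checked. The rule named every chain, and marker and pathway lists, like the members, were chosen with earlier results of these data known.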

Additional observations from a re-analysis of the deposited data

Results flagged for a closer look

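In groups of 4 mice, 14 of 180 sets of values held a mouse far from the other 3, where chance gives about 1 in 20. The sets are not independent, since both fractions share mice and the class sums contain the chains. The count of 14 therefore shows neither an excess nor a lack of such mice. Among CDAHFD controls the highest library stood at 505 CPM for Col27a1, 31.7 CPM for Col20a1 and 652 CPM for the fibrillar sum in hepatocyte nuclei and at 465 CPM for Col27a1 in whole liver, all in Control_10113, and Col4a2 stood at 66.2 CPM in the hepatocyte library of Control_9867. In FPC mild mice, Mild_6825 stood high for Col25a1 (25.2 CPM in hepatocyte nuclei and 23.9 CPM in whole liver), and 1 mouse each stood high for Col6a3 (82.0 CPM) and Col27a1 (158 CPM) and low for the basement membrane sum (474 CPM) in whole liver. The lowest mouse stood at 82.6 CPM for Col4a1 and 1.96 CPM for Col7a1 in CDAHFD mild whole liver and at 38.6 CPM for Col14a1 in FPC control whole liver, and the highest at 1.06 CPM for Col4a6 in FPC control hepatocyte nuclei.

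The advanced change differed between fractions, as hepatocyte minus whole liver on the log2 scale, for Col4a3 (2.02), Col4a6 (1.77) and Col15a1 (-1.74) under FPC and for Col16a1 (2.82), Col4a6 (2.06), Col15a1 (-2.21) and Col23a1 (-1.19) under CDAHFD. Under CDAHFD the Col15a1 call was lost with the mouse as a block (edgeR adjusted p = 0.071), and the Col4a6 and Col23a1 calls without Control_9862 and Control_9867. That block pairs the libraries of these 2 controls by label, although they deviated crosswise. The Col15a1 value with them exchanged is not given here. The advanced change differed between diets, as CDAHFD minus FPC, for Col27a1 (-2.35), Col20a1 (-2.27), Col23a1 (-1.95) and Col4a5 (-1.42) in hepatocyte nuclei. In whole liver it did so for Col27a1 (-2.17), Col6a6 (-1.90), Col3a1 (-1.60), Col4a6 (-1.57), Col4a2 (-1.46), Col4a1 (-1.35), Col8a1 (-1.33), Col4a5 (-1.13) and Col14a1 (-1.04).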

How the results depend on the processing

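No called change of a chain turned its direction under any alternative, while 247 of 10239 recomputed values of single chains had the other sign, called in neither fit (33 of them by library totals). In FPC whole liver the basement membrane sum was higher in advanced than in control mice by totals and lower by TMM (932 against 1207 CPM). In CDAHFD hepatocyte nuclei the sum of each class was higher in mild than in control mice by totals and lower by TMM. By TMM these sums were 483 against 608 (fibrillar), 1206 against 1476 (basement membrane) and 64.5 against 66.8 CPM (other). The fibrillar sum in CDAHFD whole liver turned between advanced and mild mice (442 against 423 CPM by totals, 361 against 375 by TMM). Over the counts of chains called, 130 of 142 recomputed values (mice left out apart) stayed within 1.5 times. With DESeq2 the CDAHFD advanced against mild counts were 4 in hepatocyte and 3 in whole liver nuclei (edgeR 1 and 1), the fraction by disease count under CDAHFD was 7 (edgeR 4), and the diet difference counts were 8 in hepatocyte and 19 in whole liver nuclei (edgeR 4 and 9). Fitting only the groups compared gave 3 for each of the CDAHFD advanced against mild counts. By library totals, CDAHFD mild against control in whole liver gave 28 (TMM 18), and advanced against mild 2 (TMM 1). The median gene of that mild comparison moved up by 0.38 (log2) under totals. Shares of all genes called by DESeq2, with only the groups compared, by library totals or with a mouse left out are not given here. The counts from those refits therefore have no background beside them. With the mouse as a replicate block the fraction by disease count was 12 under FPC (3 without) and 6 under CDAHFD (4 without), or 11 with the libraries of Control_9862 and Control_9867 exchanged, an alternative chosen after seeing the data. Of all genes, 9.45%, 18.0% and 29.6% were called in these blocked fits, in the same order. Without the block 3.82% (FPC) and 10.2% (CDAHFD) were. Leaving out each mouse in turn gave 1 to 2 for CDAHFD advanced against mild in hepatocyte nuclei, 1 to 6 for CDAHFD fraction by disease, and 4 to 7 and 8 to 17 for the diet difference in hepatocyte and whole liver nuclei. Without Control_9862 and Control_9867, chosen after seeing the data, the whole liver diet difference was 19, with no share of all genes beside it. The cause of these moves was not tested.

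Scaled by TMM in place of totals, class sums that moved past their SD were, for fibrillar chains, 430.0 (FPC control) and 608.3 CPM (CDAHFD control) in hepatocyte nuclei. For basement membrane chains they were 851.7 (CDAHFD advanced) and 1434 CPM (FPC control) in hepatocyte nuclei and 931.6 (FPC advanced), 619.9 (CDAHFD advanced) and 752.3 CPM (CDAHFD mild) in whole liver. For the other chains they were 95.2 (FPC advanced), 67.0 (CDAHFD advanced) and 66.8 CPM (CDAHFD control) in hepatocyte nuclei and 516.3 (FPC advanced) and 277.6 CPM (CDAHFD advanced) in whole liver. The hepatocyte to whole liver ratio moved to 122.5% for fibrillar chains of CDAHFD controls, 121.5% for basement membrane chains of FPC mild mice and 24.2% for other chains of CDAHFD mild mice. Of the changes of single chains, 4688 recomputed values stayed as they were, called or not called, 162 gained a call and 65 lost one. With a mouse left out 5035 stayed as they were, 90 gained a call and 199 lost one. The values that stayed include changes called in neither fit, so the losses are not given as a share of the calls. Chains under about 1 CPM rest on a few counts per library, so a missed call there sets no limit on a change. With 3 advanced mice a group, 1 mouse often decides a call near the threshold.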

Other observations

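The authors' deposited table of changes does not list every chain. It holds 21 of the 44, and for the 16 of these also tested here the hepatocyte change of advanced over control FPC mice had the same direction in 16. The direction of the deposited changes was checked against these same counts, so the match is not independent support. The chains the authors list, with a mean of at least 10 counts in whole liver, stood at a median of 88.0% of their whole liver level in hepatocyte nuclei over all mice (16 chains, 49.3% to 171%), and those they do not list at 14.6% (20 chains, 8.29% to 87.6%). Over all identifiers with that many counts the medians were 103% (11787 listed) and 13.6% (2028 not listed). How the authors chose the rows is not given in the sources used here.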
